A study of Mus musculus with 6 samples.

Results

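The subunits of the respiratory chain and of the ATP synthase were examined in cultured mouse gastric corpus organoids, epithelial structures that grow in 3D from cells of the acid-secreting body of the stomach. Polyadenylated RNA was sequenced from 3 libraries of organoids that overexpress Erbb2, a receptor tyrosine kinase gene, and from 3 libraries of control organoids that carry an empty vector, with replicate numbers 1 to 3 in both groups. The labels give neither the strain, sex or age of the donor mice, nor the promoter of the construct, nor whether the 3 libraries of each group were separate cultures or animals, so p-values measure the spread between these libraries, which may be technical. Members were chosen by symbol alone, as genes beginning mt-Nd, mt-Co, mt-Atp or mt-Cytb, or Ndufa, Ndufb, Ndufc, Ndufs or Ndufv without Ndufaf, Sdha to Sdhd, Uqcr, Cox4i to Cox8, or Atp5. This gave 98 of 25528 genes, of which 13 are encoded in mitochondrial DNA and 85 in the nucleus. By name, 38 of the nuclear members belong to complex I, 4 to complex II, 8 to complex III, 18 to complex IV and 17 to complex V. The symbols are those of an older annotation, so Atp5g1, Atp5g2 and Atp5g3 are now called Atp5mc1, Atp5mc2 and Atp5mc3, and Atp5h, Atp5k and Atp5l are Atp5pd, Atp5me and Atp5mg. The rule also takes Atp5s, which is related to the assembly of the synthase rather than a core subunit, and 1 pseudogene symbol ending -ps was left out.

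The respiratory chain sits in the inner mitochondrial membrane. Complexes I and II pass electrons from NADH and succinate to ubiquinone, complex III passes them to cytochrome c, complex IV hands them to oxygen, and the proton gradient built on the way drives ATP synthesis by complex V. Complex II is made from nuclear genes alone, whereas the other complexes combine nuclear subunits, imported as proteins, with a small core read from mitochondrial DNA. That core is transcribed as long precursors from both DNA strands, which are cut at the transfer RNAs and mostly polyadenylated. In the gastric corpus, parietal cells are known for the density of their mitochondria, which supply the ATP for acid secretion.

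Library totals ran from 18735853 to 22767455 counts, and 12593 genes had enough counts to be tested. Erbb2 itself was at 342, 349 and 285 CPM (counts per 1000000 of the scaled library) in the overexpressing libraries, against 125, 164 and 128 CPM in the control libraries, without overlap. Its log2 fold change was 1.23 in both edgeR fits, with an adjusted p of 0.64 without the replicate number as a block and 3.55e-05 with it. Epithelial markers (Epcam, Cdh1, Krt8, Krt18, Krt19 and Cldn18) summed to between 8161 and 8511 CPM in overexpressing and between 6859 and 8489 CPM in control libraries, while the sums for fibroblasts, endothelium and muscle stayed at or under 1.70, 0.393 and 0.371 CPM. The 7 parietal markers summed to between 139 and 250 CPM in overexpressing and between 117 and 245 CPM in control libraries, and of these Atp4b, a subunit of the proton pump, and Slc26a7 were at 0 counts in every library. The parietal markers did not move one way. Kcnj15, a potassium channel gene, had a log2 fold change of -0.69 and fell under the block (adjusted p = 0.00379 in edgeR). Aqp4, a water channel gene, was at 79.2, 51.5 and 103 CPM in overexpressing and 4.36, 1.30 and 16.7 CPM in control libraries without passing the threshold (adjusted p = 0.174 with the block in edgeR), and Atp4a, the catalytic subunit of the proton pump, had a log2 fold change of 0.06. The neck markers Tff2, Agr2 and Cftr and the pit marker Psca rose under the block. Without the block none of these calls was made, with an adjusted p of 0.9997 for Kcnj15, Tff2, Agr2 and Cftr and 0.64 for Psca in edgeR. The neck list summed to between 370 and 599 CPM in overexpressing and between 228 and 320 CPM in control libraries, and the pit list of 5 genes to between 207 and 352 CPM in overexpressing libraries and to at most 143 CPM in control libraries. Chief markers summed to between 501 and 1181 CPM in overexpressing and between 170 and 1315 CPM in control libraries. Except in control library 2, most of this was Gkn3, with a log2 fold change of 0.49. Pgc, Clps, Pga5 and Bhlha15 had -0.40, -0.94, -0.56 and -0.04, and no chief marker passed the threshold in either fit. Immune markers summed to between 18.4 and 73.3 CPM in overexpressing and between 20.3 and 53.7 CPM in control libraries. Most of this was Cd68, at 34.8, 17.3 and 72.8 CPM in overexpressing and 22.7, 18.3 and 52.9 CPM in control libraries. Ptprc stayed at or under 1.97 CPM, and the macrophage gene Adgre1 was at 0. The part of such shifts in the results below was not tested. Libraries that share a replicate number deviated together, so member values are given from the fit without that number and, where the call differs, also from the fit with it as a block.

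The mitochondrially encoded subunits fell into separate levels of counts that did not follow their place in the complexes. The transcripts mt-Co1, mt-Cytb, mt-Nd1, mt-Nd2, mt-Nd5 and mt-Nd4 were among the most abundant in the libraries, mt-Nd6 was lower, mt-Nd3 had at most 69 counts, and mt-Co2, mt-Co3, mt-Atp6, mt-Atp8 and mt-Nd4l were at or near 0 in both groups. The pattern of near-absent genes matched identical copies in the nuclear genome for each of these except mt-Atp8. The sequences below are the first 48 bases of mitochondrial genes and of their annotated nuclear copies, taken from the GENCODE M21 transcripts and shown because they bear on which of these genes can be counted. Capitals mark the base at which mt-Nd3 and its copy differ, and in mt-Nd4, shown around the point where its copy ends, the bases that lie beyond the copy.
mt-Co2: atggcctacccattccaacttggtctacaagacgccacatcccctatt
Gm28661: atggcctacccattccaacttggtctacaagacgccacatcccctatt
mt-Co3: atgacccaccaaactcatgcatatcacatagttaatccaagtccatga
Gm28437: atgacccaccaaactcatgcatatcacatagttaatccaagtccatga
mt-Nd3: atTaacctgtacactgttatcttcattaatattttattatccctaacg
Gm28438: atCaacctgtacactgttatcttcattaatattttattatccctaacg
mt-Nd4: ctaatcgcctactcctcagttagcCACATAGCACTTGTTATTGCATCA

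The copies are annotated as unprocessed pseudogenes on chromosome 1, in the same order as the genes on mitochondrial DNA. Gm28661 held 681 bases of mt-Co2, Gm10925 held 678 bases of mt-Atp6, Gm28437 held 783 bases of mt-Co3 and Gm10222 held 294 bases of mt-Nd4l, each with 0 substitutions. Gm28438 held 345 bases of mt-Nd3 with a single substitution, T3C, counted from the first base of the gene with the mitochondrial base first. Gm28439 held the first 876 of the 1378 bases of mt-Nd4 with 0 substitutions, and Gm29216 held positions 1054 to 1545 of mt-Co1 with 6 substitutions, all near its start (T1056A, C1057T, A1059G, A1060G, C1062A and A1066T). The stretch between Gm28661 and Gm10925 was 233 bases long, the same as the stretch that separates the matching parts of mt-Co2 and mt-Atp6 and that contains most of mt-Atp8, a gene of 204 bases with 43 of them inside mt-Atp6. Its sequence and the counts of the copies were not analysed here.

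The share of each gene that is also found elsewhere was measured as the percentage of its 50-base windows present in a transcript of another annotated gene. It was 100% for mt-Co2, 99.9% for mt-Co3, 99.5% for mt-Atp6, 98.8% for mt-Nd4l and 98% for mt-Nd3, and these 5 genes had between 0 and 69 counts in any library. It was 62.2% for mt-Nd4 and 51.1% for mt-Co1, which kept a long stretch without a copy, and 8.19% for mt-Nd2 and 7.61% for mt-Nd5. It was 0% for mt-Nd1, mt-Nd6, mt-Cytb and mt-Atp8. How reads with several positions were counted is not stated, and the part of the shared sequence in the low counts was not tested. The low counts of these genes are not read as transcript levels here, and mt-Co2, mt-Co3, mt-Atp6, mt-Atp8 and mt-Nd4l did not pass the filter for the comparison of the groups.

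**Figure D1:**
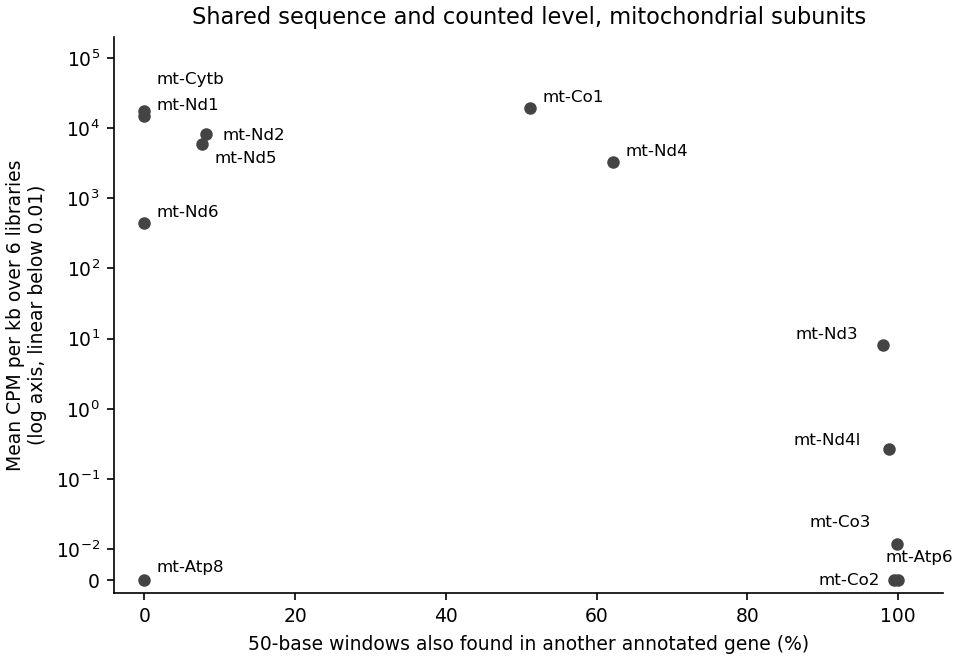
Mean level of each mitochondrially encoded subunit over the 6 libraries (CPM per kb, log axis that is linear below 0.01) against the share of its 50-base windows found in another annotated gene (%). The genes at 98% or more lie far below the others, and mt-Atp8 is at 0 with 0% shared; each point is 1 gene.

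The counts themselves show the same levels in every library. In mt-Co1, the catalytic subunit of complex IV, 625937, 674004 and 565826 counts were found in the overexpressing libraries 1 to 3, against 553764, 616329 and 641744 in the control libraries. For mt-Cytb, the cytochrome b of complex III, the overexpressing libraries had 419011, 498112 and 269041 counts and the control libraries 418270, 468099 and 406406. Library 2 was the highest overexpressing library for both genes and library 3 the lowest, and the groups overlapped.

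The complex I core subunits on mitochondrial DNA form its membrane arm, where protons are pumped. The transcript of mt-Nd1 had 286596, 327353 and 230920 counts in overexpressing and 294231, 328557 and 288826 in control libraries. The next gene, mt-Nd2, had 173628, 202456 and 134572 counts in overexpressing and 180603, 203076 and 159553 in control libraries, and mt-Nd5 had 216277, 269037 and 173601 in overexpressing and 206687, 266316 and 200579 in control libraries. For each of these, overexpressing library 3 was the lowest of all 6 and the groups overlapped.

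Counts of mt-Nd4, whose last part has no annotated nuclear copy, were 89585, 112456 and 65086 in overexpressing and 87104, 105857 and 88786 in control libraries. Those of mt-Nd3 were 66, 69 and 60 in overexpressing and 51, 52 and 58 in control libraries, so that each overexpressing count lay above each control count, though scaled to CPM the groups overlapped. The remaining low genes had 0, 0 and 2 counts (mt-Nd4l) and 0, 1 and 0 counts (mt-Co3) in overexpressing libraries, against 5, 2 and 1 counts (mt-Nd4l) and 0, 0 and 0 counts (mt-Co3) in control libraries. No count of mt-Co2, mt-Atp6 or mt-Atp8 was found in any of the 6 libraries.

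**Figure D2:**
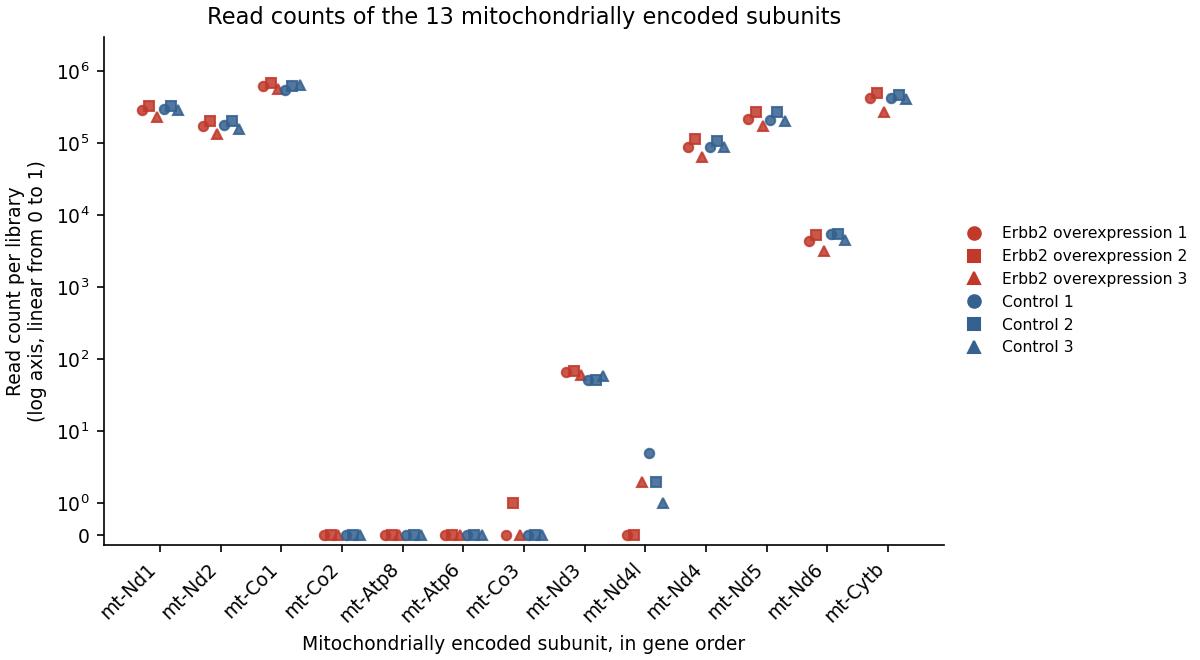
Read counts of the 13 mitochondrially encoded subunits in the overexpressing (red, left) and control (blue, right) libraries, in their order on mitochondrial DNA, on a log axis that is linear between 0 and 1; symbols give the replicate number. The run from mt-Co2 to mt-Nd4l lies at or near 0 apart from mt-Nd3, whose libraries hold 51 to 69 counts.

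Unlike the other genes, mt-Nd6 is read from the opposite strand of mitochondrial DNA, and in human cells its messenger RNA is known to carry little or no poly(A) tail. Several of the other genes end within a stop codon that the tail completes. The last 24 bases of 4 transcripts are shown for this, because the libraries were selected for poly(A), with the coded part of the stop codon in capitals.
mt-Cytb end: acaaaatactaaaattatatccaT
mt-Co3 end: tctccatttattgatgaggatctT
mt-Nd4 end: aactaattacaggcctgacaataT
mt-Nd6 end: attatcgagattactcgagatTAA
In mt-Cytb, mt-Co3 and mt-Nd4 a single T remains of the codon, whereas mt-Nd6 holds it whole. This is not particular to mt-Nd6. The lengths of mt-Co1, mt-Nd1, mt-Nd2 and mt-Nd5 (1545, 957, 1038 and 1824 bases) are also whole numbers of codons. The part of the stop codon in the counts was not tested. Counts of mt-Nd6 were 4372, 5283 and 3152 in overexpressing and 5419, 5537 and 4497 in control libraries. It was lower with overexpression in 3 of 3 pairs of the same number, with a log2 fold change of -0.29 (SE 0.31) without the block and -0.34 (SE 0.09) with it, and neither passed the threshold in edgeR (adjusted p = 0.9997 and 0.0826). In DESeq2 with the block its adjusted p was 0.0452. The strand setting of the counting is not given in the sources used here, so reads of the opposite strand in this place cannot be told apart from mt-Nd6.

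Per kb of exon, 6 of the 8 tested mitochondrial transcripts stood far above every nuclear member in both groups, the exceptions being mt-Nd6 and mt-Nd3. The 8 tested mitochondrial members ran from 8.89 CPM per kb for mt-Nd3 to 19205 CPM per kb for mt-Co1 in overexpressing organoids, with a median of 6870, and from 7.46 to 18984 with a median of 7318 in controls, for the same genes at the ends. The 79 tested nuclear members ran from 0.882 CPM per kb for Cox7a1 to 335 CPM per kb for Uqcrb, with a median of 22.4, in overexpressing organoids, and from 1.08 CPM per kb for Cox6b2 to 429 CPM per kb for Uqcrb, with a median of 26.2, in controls. Length here is that of the exons of all annotated transcripts, so genes with long rarely used exons come out low. It also takes in shared sequence, to which 62.2% of the windows of mt-Nd4, 51.1% of mt-Co1 and 98% of mt-Nd3 belong. The places of these genes in the range, the medians and the order are therefore uncertain, and the value of mt-Nd3 is not read as a transcript level. Over all libraries the order at the top was mt-Co1 at 19095 CPM per kb, mt-Cytb at 17616, mt-Nd1 at 14841, mt-Nd2 at 8239, mt-Nd5 at 5949 and mt-Nd4 at 3242. Next came mt-Nd6 at 442 CPM per kb, close to Uqcrb at 382 CPM per kb, the highest nuclear member. After it stood Cox7a2l, a factor of respiratory supercomplexes, at 291 CPM per kb and Atp5a1, the alpha subunit of the synthase, at 277 CPM per kb.

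The share of all counts that fell on the mitochondrial members varied more between replicate numbers than between the groups. It was 8.01%, 11.1% and 6.34% in overexpressing libraries 1 to 3 and 8.14%, 10.6% and 8.05% in control libraries, or 8.48 ± 2.42% and 8.94 ± 1.47% (SD, n = 3 each). The difference of -0.46 percentage points was within the spread between libraries (exact permutation test over the 6 libraries, two-sided, p = 0.8, where the smallest p possible is 0.1). Without overexpressing replicate 3 the difference turned to 0.613, and without control replicate 2 to 0.389. The share covers only part of the mitochondrial members, because mt-Co2, mt-Co3, mt-Atp6, mt-Atp8 and mt-Nd4l were at or near 0 and mt-Nd3 had few counts. Between 30.9% and 39.2% of the mitochondrial counts were those of mt-Co1.

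The nuclear members together took 0.638%, 0.694% and 0.67% of the counts in overexpressing libraries, against 0.681%, 0.791% and 0.776% in control libraries. The overexpressing library was the lower in 3 of 3 pairs of the same number, with differences of -0.0433, -0.0966 and -0.106 percentage points, though overexpressing library 2 lay above control library 1. The means were 0.667 ± 0.0282% with overexpression and 0.749 ± 0.0594% in controls (SD, n = 3 each), a difference of -0.0819 percentage points that did not pass the exact permutation test over libraries (two-sided, p = 0.2). The exact sign-flip test over the 3 pairs gave p = 0.25, which is the smallest it can give. In bulk libraries, fewer cells of a type and less RNA per cell cannot be told apart.

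The ratio of mitochondrial to nuclear counts does not depend on how libraries are scaled, but its mitochondrial part is the same incomplete sum as in the share above. There were 12.6, 16 and 9.46 mitochondrial counts for each nuclear one in overexpressing libraries 1 to 3, and 12, 13.5 and 10.4 in control libraries. On the log2 scale the ratio was 3.63 ± 0.38 with overexpression and 3.57 ± 0.19 in controls (SD, n = 3 each), with a difference of 0.06 (exact permutation test, two-sided, p = 0.9). It was higher with overexpression in pairs 1 and 2 and lower in pair 3, and leaving out overexpressing replicate 2 or control replicate 3 turned the difference to -0.12 and -0.03.

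**Figure D3:**
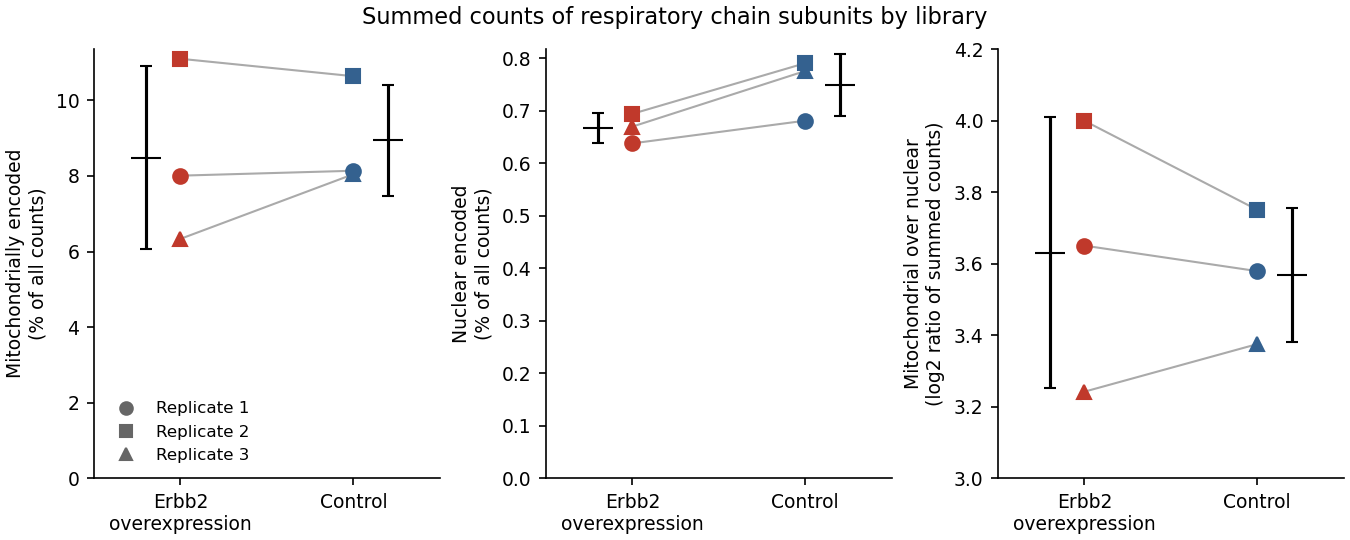
Share of all counts on the mitochondrial members (%, left) and on the nuclear members (%, middle), and the log2 ratio of their summed counts (right, axis not from 0), in overexpressing (red) and control (blue) libraries; lines join libraries of the same replicate number and bars are mean ± SD, n = 3. The nuclear share is lower with overexpression on each of the 3 lines, while the mitochondrial share and the ratio cross.

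Fitted gene by gene, no member passed the threshold of an adjusted p of 0.05 without the block. In edgeR 0 of 87 tested members were called, where 0% of all genes were, and DESeq2 called 0 members too, where it called 0.0456% of all genes lower. At an unadjusted p under 0.05 edgeR listed 2 members, Ndufa4 and Atp5k, against 3.33% of all genes. Under the block for replicate number 3 members fell and 0 rose, that is 3.45% of those tested, where 0.723% of all genes fell and 2.37% rose. At an unadjusted p under 0.05 in that fit 24 members were lower, or 27.6% where 7.21% of all genes were, and 1 member, Cox6b2, was higher, where 9.64% of all genes were. DESeq2 with the block called 5 members lower, where it called 0.762% of all genes lower. Of the 98 members, 87 passed the filter on low counts, and the 11 that did not were the 5 mitochondrial genes at or near 0 and 6 nuclear isoforms.

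The direction of the fitted values was shared widely among the nuclear members. Without the block 72 of 79 tested nuclear members and 6 of 8 mitochondrial ones had a log2 fold change below 0, or 89.7% of all tested members, where 52.3% of all genes did. The median was -0.16 over nuclear and -0.10 over mitochondrial members, against -0.01 over all genes tested. With each library left out in turn the nuclear median lay between -0.23 and -0.07 and the mitochondrial one between -0.43 and 0.15. Both groups were set apart without overlap in 8 members, all of them nuclear and lower with overexpression, which is 9.2% of the tested members where 4.48% of all genes were lower without overlap. None was higher without overlap, where 4.27% of all genes were.

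Within pairs of the same number, 45 of the 87 tested members were lower in 3 of 3 pairs, or 51.7% where 19.2% of all genes were, and 2 members were higher in 3 of 3, where 19.6% of all genes were. These 2 were mt-Nd3 and Cox6b2. The log2 difference of mt-Nd3 in pair 3 was only 0.0014, and its counts are not read as a transcript level. Taken pair by pair, 52, 64 and 73 of the 79 nuclear members were lower with overexpression in pairs 1, 2 and 3, that is 65.8%, 81% and 92.4%, against 50.9%, 49.5% and 50.3% of all genes. Of the 8 mitochondrial members 6, 1 and 7 were lower in pairs 1, 2 and 3. So the nuclear members leaned to lower values in each pair, whereas the mitochondrial members were mostly lower in pairs 1 and 3 and mostly higher in pair 2. Several of the differences in pair 2 were close to none. On the log2 scale they were 0.0020 for mt-Nd1, 0.0029 for mt-Nd2 and 0.0220 for mt-Nd5. For mt-Nd4, mt-Cytb and mt-Co1 they were 0.0946, 0.0970 and 0.1364, for mt-Nd3 0.4154 and for mt-Nd6 -0.0604. Genes of the same library are not independent of each other, and these counts are descriptions.

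**Figure D4:**
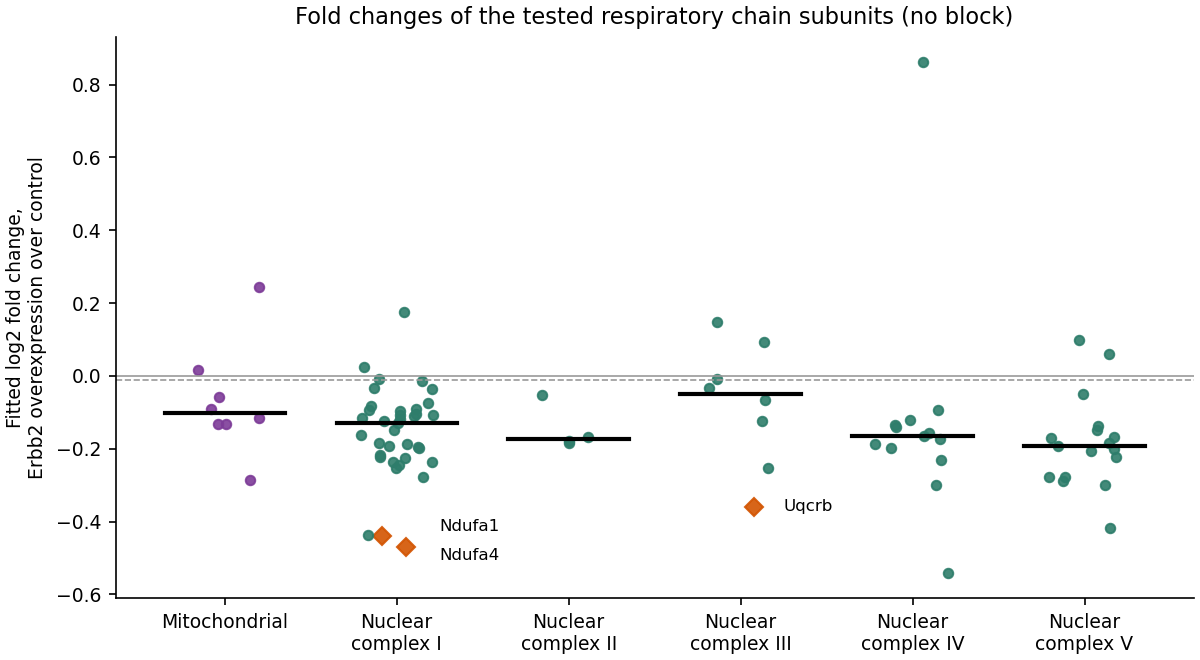
Fitted log2 fold change of overexpressing over control organoids without the block, for the 8 mitochondrial and 79 nuclear tested members by complex; each point is 1 gene, black bars are medians, the dashed line is the median of all genes tested (-0.01), and orange diamonds mark the genes past the threshold with the replicate block. The median of each nuclear complex lies below 0, from -0.19 for complex V to -0.05 for complex III.

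Complex I is the largest group, and 35 of its 37 tested nuclear members had a log2 fold change below 0 without the block, with a median of -0.13. Ndufa1, a small accessory subunit needed for the assembly of the complex, was at 73.2, 93 and 51.1 CPM in overexpressing libraries 1 to 3, against 93.4, 136 and 64.4 CPM in the control libraries. Its level followed the replicate number, so that the groups overlapped, and the overexpressing library was the lower in each pair. The log2 fold change was -0.44 (SE 0.32) without the block (edgeR, adjusted p = 0.9997), and with the block Ndufa1 fell by 0.41 on the log2 scale (SE 0.08, adjusted p = 0.0199 in edgeR). No 50-base window of Ndufa1 was found in another annotated gene.

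Ndufa4 was first assigned to complex I and is now known as a subunit of complex IV. It was at 24.2, 27.8 and 26.4 CPM in overexpressing libraries and at 30.6, 41.5 and 36.4 CPM in control libraries, and the groups did not overlap. The log2 fold change was -0.47 (SE 0.15; edgeR, adjusted p = 0.9997) without the block, and with it Ndufa4 fell by 0.46 (SE 0.10, adjusted p = 0.0321 in edgeR), which is 1.38-fold. It too shared no 50-base window with another gene. Its paralogue Ndufa4l2, known to be induced by low oxygen, had a single count in all 6 libraries.

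Other complex I subunits stood lower without overlap but did not pass the threshold in either fit. Ndufs6, an accessory subunit near the site of NADH oxidation, was at 81.5, 89.4 and 86.4 CPM in overexpressing libraries and 89.7, 99.4 and 105 CPM in control libraries, with a log2 fold change of -0.19 (SE 0.10). Ndufs5, an accessory subunit of the membrane arm, was at 3.71, 3.62 and 3.16 CPM in overexpressing and 5.47, 4 and 4.69 CPM in control libraries (-0.44, SE 0.23), and 21.7% of its windows are shared, mainly with a processed pseudogene. Ndufa2 and Ndufb3 were the others without overlap, with log2 fold changes of -0.20 and -0.22; they were singled out after their values were seen. The exceptions to the direction were Ndufa7 and Ndufc1, both accessory subunits, at 0.18 (SE 0.14) and 0.02 (SE 0.20).

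Complex II has no mitochondrial subunit, and all 4 of its genes had a log2 fold change below 0 without passing the threshold. Sdha, the flavoprotein that oxidises succinate, was at 296, 357 and 333 CPM in overexpressing libraries and 335, 407 and 364 CPM in control libraries, with a log2 fold change of -0.17 (SE 0.12). Sdhb, the iron-sulphur subunit, and Sdhd, a membrane anchor, had values of -0.18 (SE 0.13) and -0.18 (SE 0.21). Sdhc, the other anchor, had -0.05 (SE 0.14). Summed over the complex, the level was 519 ± 52.7 CPM with overexpression and 578 ± 65.7 CPM in controls (SD, n = 3 each), which overlapped (exact permutation test, two-sided, p = 0.3).

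In complex III the gene that passed was Uqcrb, a small subunit that takes part in the binding of ubiquinone. It was at 282, 357 and 240 CPM in overexpressing libraries and 387, 436 and 304 CPM in control libraries, lower with overexpression in 3 of 3 pairs although the groups overlapped. The log2 fold change was -0.36 (SE 0.19; edgeR, adjusted p = 0.9997) without the block, and with it Uqcrb fell by 0.36 (SE 0.08, adjusted p = 0.0221 in edgeR). Of its 50-base windows 25.5% are also found in other genes, mostly a processed pseudogene, so its count is uncertain.

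The other members of complex III did not move together. Uqcrh, the hinge protein at the cytochrome c site, was at 166, 192 and 153 CPM in overexpressing and 189, 234 and 184 CPM in control libraries (log2 fold change -0.25, SE 0.14; adjusted p = 0.103 with the block in edgeR). Uqcrq, an accessory subunit, was at 28.7, 29.5 and 25.1 CPM in overexpressing and 21.8, 26.1 and 27.2 CPM in control libraries (0.15, SE 0.14), and Uqcrfs1, the Rieske iron-sulphur protein, had 0.09 (SE 0.13). The core proteins Uqcrc1 and Uqcrc2 had values of -0.12 (SE 0.14) and -0.01 (SE 0.12). The median over the 8 members was -0.05, the nearest to the -0.01 of all genes among the complexes.

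Grouped by name, and so without Ndufa4, the 13 tested nuclear members of complex IV had a median log2 fold change of -0.16. Of these, 12 were below 0 and 0 were called in either fit. The common isoforms that were named with their tissue-specific partners had similar values, with Cox4i1 at -0.16 (SE 0.12), Cox6a1 at -0.20 (SE 0.16), Cox6b1 at -0.14 (SE 0.14), Cox7a2 at -0.16 (SE 0.14), Cox7b at -0.19 (SE 0.13) and Cox8a at -0.09 (SE 0.14). Cox5b, a zinc-binding subunit, had the lowest value of the abundant ones. It was at 70.8, 80.6 and 63.2 CPM in overexpressing libraries and 71.9, 98.6 and 93.6 CPM in control libraries (-0.30, SE 0.16; adjusted p = 0.156 with the block in edgeR). Cox6c, a small membrane subunit, was at 58.7, 73.8 and 64.4 CPM in overexpressing and 65.5, 86.7 and 78.8 CPM in control libraries (-0.23, SE 0.14; adjusted p = 0.181 with the block in edgeR), lower with overexpression in 3 of 3 pairs though the groups overlapped.

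The isoforms known from other tissues were nearly absent. Cox4i2 (lung), Cox6a2 and Cox8b (heart and skeletal muscle), and Cox7b2 and Cox8c (testis) were at 0 counts in all 6 libraries and were not tested. Cox7a1, the muscle form, was at 0.436, 0.396 and 0.583 CPM in overexpressing and 0.695, 0.451 and 0.904 CPM in control libraries (-0.54, SE 0.51). Cox6b2, the testis form, was at 1.09, 0.566 and 4.91 CPM in overexpressing and 0.741, 0.451 and 2.41 CPM in control libraries. It was high in both libraries numbered 3 and higher with overexpression in each pair, and its log2 fold change of 0.86 (SE 0.90) turned to -0.55 without overexpressing replicate 3.

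Complex V, the ATP synthase, had the lowest median of the complexes, -0.19, with 15 of 17 members below 0 and 0 called in either fit. The catalytic head is built from Atp5a1 and Atp5b, which were the most abundant nuclear transcripts by CPM. Atp5a1 was at 784, 907 and 765 CPM in overexpressing and 859, 993 and 906 CPM in control libraries (log2 fold change -0.17, SE 0.12), and Atp5b at 620, 737 and 631 CPM in overexpressing and 634, 811 and 813 CPM in control libraries (-0.18, SE 0.14). For both, overexpressing library 2 lay above the lowest control library.

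The 3 genes of this complex with the smallest p all belong to its membrane part or peripheral stalk. Other peripheral stalk members, Atp5f1, Atp5o and Atp5j, had log2 fold changes of -0.19, -0.22 and -0.14. Of their 50-base windows 14.3%, 41.6% and 8.89% are shared with other genes. In the membrane part, Atp5g1, Atp5g2 and Atp5g3 had -0.20, 0.06 and -0.20. Also in this part, Atp5j2 and Atp5l had -0.30 (SE 0.19) and -0.29 (SE 0.44). Atp5e and Atp5d, of the central stalk, had 0.10 and -0.05. Atp5k, subunit e, which helps hold synthase dimers together, was at 18.4, 21.7 and 16.9 CPM in overexpressing and 25.5, 24.9 and 25.6 CPM in control libraries. The groups did not overlap, and the log2 fold change was -0.42 (SE 0.14), with an adjusted p of 0.9997 without the block and 0.0905 with it (edgeR). Atp5h, subunit d of the peripheral stalk, was at 171, 202 and 172 CPM in overexpressing and 205, 249 and 207 CPM in control libraries, also without overlap (-0.28, SE 0.13). Its adjusted p with the block was 0.0681 in edgeR and 0.0499 in DESeq2. Of the 50-base windows of Atp5h 19.9% are also found in other genes, mostly a processed pseudogene, so its count is uncertain. Atp5mpl, a small proteolipid of the membrane part, was at 14.4, 14.8 and 12.9 CPM in overexpressing and 16.3, 16.7 and 17.9 CPM in control libraries (-0.28, SE 0.14).

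The c subunit, which forms the rotating ring, is encoded by 3 genes that give the same mature protein. Atp5g3 was the most abundant, at 90.8, 101 and 82 CPM in overexpressing and 90.6, 114 and 111 CPM in control libraries (-0.20, SE 0.13). Atp5g1 had a log2 fold change of -0.20 (SE 0.20). Atp5g2 was at 21, 21.2 and 20 CPM in overexpressing and 18, 19 and 22.5 CPM in control libraries (0.06, SE 0.14), and 38.3% of its windows are shared with other genes. Atp5l, subunit g, was low for an abundant complex, at 169, 59 and 191 counts in overexpressing and 192, 68 and 235 in control libraries. Both libraries numbered 2 had the fewest counts of their group. Of the 50-base windows of Atp5l 9.99% are shared with other genes.

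**Figure D5:**
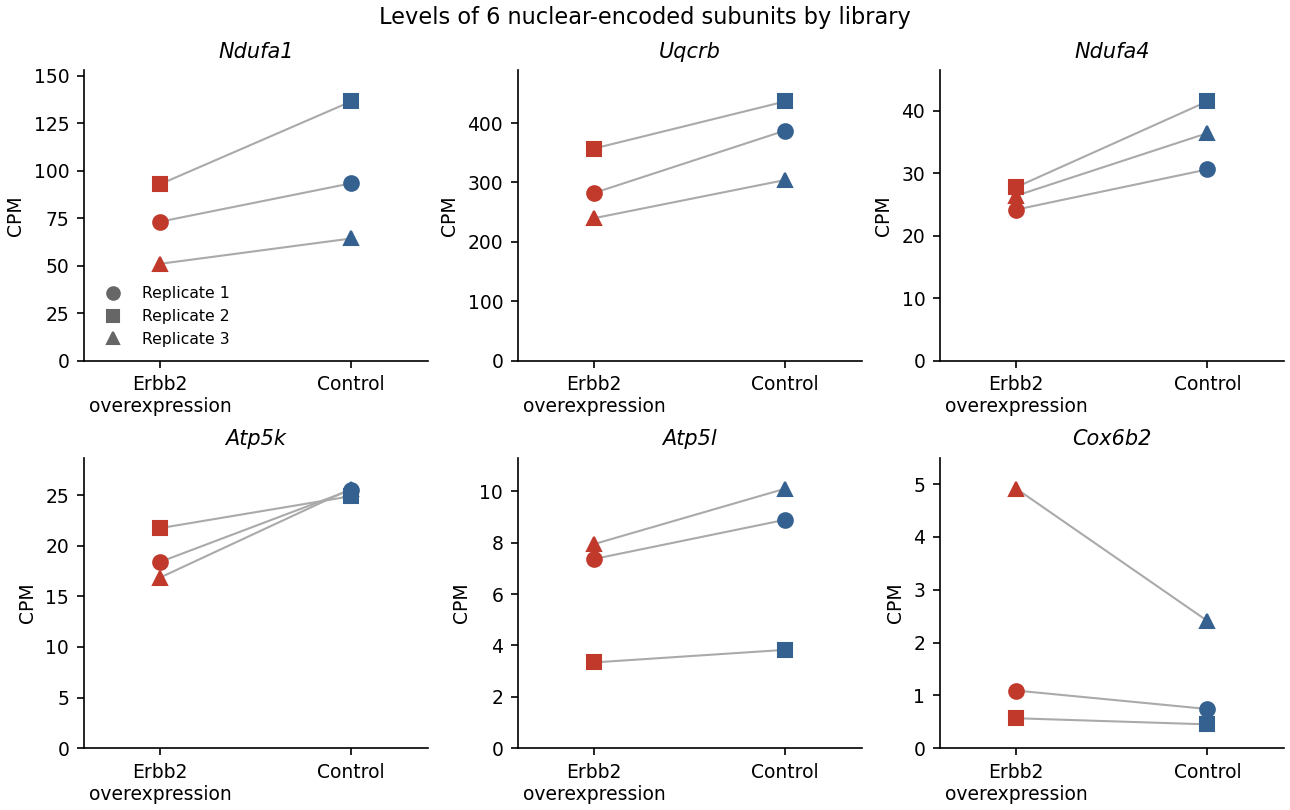
Levels of 6 nuclear members in CPM in overexpressing (red, left) and control (blue, right) libraries, with lines joining libraries of the same replicate number. Ndufa1, Uqcrb and Ndufa4 are lower with overexpression on each line, the groups of Ndufa4 and Atp5k do not overlap, and Atp5l and Cox6b2 vary more between replicate numbers than between groups.

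The 3 calls with the block depended on which pairs were kept. Without pair 1 the adjusted p was 0.055 for Ndufa1, 0.137 for Uqcrb and 0.0828 for Ndufa4, and without pair 2 it was 0.306, 0.163 and 0.303, so that 0 members were called in either case. Without pair 3 it was 0.000197, 0.00131 and 0.00833, and Atp5h was called too at 0.033 (all edgeR with the block). In DESeq2 with the block the adjusted p of the 3 genes was 0.00783, 0.00195 and 0.0447. The direction was the same in each of these fits. A fit without a pair holds fewer libraries, and the share of all genes called in it is not given here. The change in calls is therefore not read as particular to these members.

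Replicate number took a larger share of the members' variation than the group, but the shares are not on equal terms. The number has 3 levels and the group 2, so the share of the number is larger on average even without any effect. The median share of the variation in log2 CPM was 62.3% for the number and 20.5% for the group over the 87 tested members, against 64.5% and 10.4% over all genes tested. The number had the larger share in 74 members, or 85.1%, where it did in 82.1% of all genes. Between the highest and lowest number the level differed 6.49-fold for Cox6b2, 2.49-fold for Atp5l, 1.96-fold for Ndufa1 and 1.95-fold for mt-Cytb. These are larger than the fitted difference between the groups for each of these genes.

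Promoters of nuclear respiratory genes are known for sites of the factors NRF1 and NRF2, the second of the ETS family, and of YY1. In RefSeq's table for GRCm38.p6, 67 of the 85 nuclear members had a promoter window from 250 bases before to 50 bases after the gene start. The letters GCGCATGC (NRF1) on either strand occurred in 10 of the 67, or 14.9%, against 3.05% of 27025 genes. ACCGGAAG (ETS) occurred in 6, or 8.96%, against 2.6%, and AAGATGGC (YY1) in 9, or 13.4%, against 3.19%. The 27025 genes are all those with such a window, whether or not they passed the filter on low counts, whereas most members passed it. The sets are therefore not alike, and the shares are descriptions. The windows with the NRF1 letters were those of Ndufa11, Ndufa6, Ndufa8, Sdhb, Uqcrc1, Uqcr11, Cox6a1, Atp5k, Atp5l and Atp5g2, among which log2 fold changes ran from -0.42 for Atp5k to 0.06 for Atp5g2. That of Sdhb held the ETS letters too.

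The windows of Ndufa1 and Ndufa4, which fell with the block, and of Atp5k, which did not overlap between the groups, are printed in the direction of transcription, with the NRF1 letters in capitals, which in Atp5k match on both strands and overlap. They lie on the minus strand at chrX:37191189-37191488, chr6:11907401-11907700 and chr5:108434350-108434649 of GRCm38.p6, an earlier build than the one of the counts.
Ndufa1: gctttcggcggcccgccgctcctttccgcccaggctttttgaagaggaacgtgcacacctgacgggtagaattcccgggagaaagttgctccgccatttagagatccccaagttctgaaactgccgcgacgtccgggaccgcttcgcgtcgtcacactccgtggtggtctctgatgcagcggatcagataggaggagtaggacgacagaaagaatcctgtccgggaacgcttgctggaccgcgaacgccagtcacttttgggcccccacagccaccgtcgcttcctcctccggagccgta
Ndufa4: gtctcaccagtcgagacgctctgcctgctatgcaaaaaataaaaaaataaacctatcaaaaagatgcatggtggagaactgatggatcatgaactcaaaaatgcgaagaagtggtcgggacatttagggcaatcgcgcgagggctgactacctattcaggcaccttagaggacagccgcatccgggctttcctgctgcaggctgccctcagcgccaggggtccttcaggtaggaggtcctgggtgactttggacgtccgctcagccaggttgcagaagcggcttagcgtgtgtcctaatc
Atp5k: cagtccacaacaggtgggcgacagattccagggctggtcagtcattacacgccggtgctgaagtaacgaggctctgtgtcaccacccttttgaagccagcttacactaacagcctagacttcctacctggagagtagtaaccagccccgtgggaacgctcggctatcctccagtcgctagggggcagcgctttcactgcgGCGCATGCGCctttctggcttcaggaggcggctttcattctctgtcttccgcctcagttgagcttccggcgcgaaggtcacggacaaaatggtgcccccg
None of the 3 motifs' letters was found in the windows of Ndufa1 and Ndufa4. Uqcrb, which also fell with the block, had no promoter window and was not examined. A match of letters is a description, and its absence says nothing of the factor.

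Genes that act on the respiratory chain without being subunits of it were examined as lists, and 0 members of each were called in edgeR with or without the block. Among 30 genes of mitochondrial transcription and RNA processing the median log2 fold change was -0.03, with 1 gene at an unadjusted p under 0.05 with the block. Of these 30 genes 19 lay below 0, or 63.3%, where 52.3% of all genes did. In this list 3 genes were higher without overlap, where 4.27% of all genes were, and 0 were lower without overlap. Tefm, a mitochondrial transcription elongation factor, was at 4.4, 6.45 and 4.62 CPM in overexpressing and 3.75, 3.77 and 3.87 CPM in control libraries (0.43, SE 0.24), and Ssbp1, which binds single-stranded mitochondrial DNA, had -0.22 (SE 0.13). Of 13 nuclear regulators 11 were tested, with a median of -0.03 and 7 below 0, or 63.6%. Ppargc1a, a coactivator that promotes mitochondrial biogenesis, was at 11.8, 15.2 and 17.7 CPM in overexpressing and 12.1, 9.69 and 12 CPM in control libraries (0.40, SE 0.20; adjusted p = 0.256 with the block in edgeR), and Nr2f2 had -0.27 (SE 0.18).

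Among the other lists too more values lay below 0 than above, set beside the 52.3% of all genes below 0 and the 4.48% lower without overlap. The 50 assembly factors had a median of -0.11 with 36 below 0, or 72%, and 5 lower without overlap, and Tmem186, a complex I assembly factor, was at 16.7, 16 and 14.2 CPM in overexpressing and 22.6, 20.2 and 19.5 CPM in control libraries (-0.41, SE 0.14; adjusted p = 0.102 with the block in edgeR). Cmc2 had -0.39 (SE 0.22). The 78 mitochondrial ribosomal proteins had a median of -0.12 with 59 below 0, or 75.6%, and 11 lower without overlap. The members with the smallest p were Mrpl46 at -0.32 (SE 0.16) and Mrpl18 at -0.28 (SE 0.12). The 18 tricarboxylic acid cycle enzymes had a median of -0.07, with Dld at -0.19 (SE 0.12) and Idh3g at -0.16 (SE 0.10). Of 25 electron carriers and transporters 23 were tested, with a median of -0.08, among which Coq7, an enzyme of ubiquinone synthesis, was at 12.6, 15.5 and 10.2 CPM in overexpressing and 15.1, 18.4 and 18.8 CPM in control libraries (-0.46, SE 0.20) and the ADP/ATP carrier Slc25a4 had -0.18 (SE 0.11).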

How the data were processed

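Raw read counts per Ensembl gene, whole numbers in a column of matched counts per the file headers, were deposited as 1 table per library. The submitters' processing notes name STAR, featureCounts and GRCm39. Their versions, the annotation, the strand option and how reads with several positions were treated are not stated in those notes or labels. The labels' protocols give a poly(A) kit and 100 sequencing cycles, but not whether reads were single or paired. Symbols from a mouse name table matched 25424 of 25528 IDs, and exon lengths, transcripts and pseudogenes came from GENCODE M21 (GRCm38), which is not the build of the counts.

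The tests used edgeR 4.0.16 (R 4.3.3), with filterByExpr at a minimum count of 10, TMM scaling, the robust quasi-likelihood F test (two-sided) and Benjamini-Hochberg adjustment over the 12593 genes tested, at a threshold of 0.05. Standard errors (SE) are the log2 fold change over the square root of F. The group was the single term. Replicate numbers come from the sample titles; deviations from the group means of same-numbered libraries correlated across genes at 0.333, 0.66 and 0.707 for numbers 1, 2 and 3, and the block was fitted as an alternative. Levels are CPM of the scaled library. Shares and ratios used raw sums and exact permutation tests. Other alternatives were RLE scaling, no filter, library sizes from nuclear genes, DESeq2 1.42.0, each library left out and, added after the data were seen, these with the block and each pair left out. The scripts were tested on simulated data. Members and lists were chosen with earlier results of these data known. Genes named are Erbb2, the mitochondrial members, members past the threshold in either fit, tissue isoforms with their common partners and the c-subunit genes. In each complex the 3 nuclear members with the smallest p and the 2 highest per kb are named, and the 2 list members with the smallest p. Others are named as cell type markers, as exceptions to a count, for their shared sequence or for their place in a complex.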

Additional observations from a re-analysis of the deposited data

How the results depend on the processing

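The count of nuclear members called lower, 0 without the block, was 3 with the replicate block, 3 with it under RLE scaling, without the low-count filter or on library sizes of nuclear genes, and 4 with it in DESeq2; with the block and a pair left out it lay between 0 and 4. The mitochondrial count was 1 with the block in DESeq2 (mt-Nd6) and 0 otherwise. Without the block, RLE scaling, no filter, nuclear library sizes, DESeq2 and each left-out library gave 0. With each library left out in turn, the difference in mitochondrial share ranged from -1.77 to 0.613 percentage points and that of the log2 ratio from -0.12 to 0.26. Over 38 genes with 418 alternative values, 394 kept their direction and side of the threshold, 19 changed direction and 5 came past the threshold; the cause was not tested. The log2 fold change of mt-Co1 was -0.0011 with the block. Its left-out range was -0.21 to 0.16; those of other genes that changed direction were -0.43 to 0.0624 for mt-Nd1, -0.43 to 0.11 for mt-Nd2, -0.48 to 0.16 for mt-Nd4, -0.41 to 0.22 for mt-Nd5, -0.52 to 0.14 for mt-Cytb, -0.37 to 0.0033 for Sdhd, -0.27 to 0.0196 for Cox7a2l, -0.55 to 1.91 for Cox6b2 and -0.0052 to 0.17 for Atp5g2. Precision was limited by 3 libraries a group. The sequence of mt-Co2, mt-Co3, mt-Atp6 and mt-Nd4l is shared with nuclear copies, and whether more depth would give counts was not tested.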

Other observations

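The ratio of counts on the other mitochondrial members to counts on mt-Nd6, read from the opposite strand, was chosen after the values were seen. It was 414, 394 and 457 in overexpressing libraries 1 to 3 and 321, 359 and 397 in control libraries. It was higher with overexpression in 3 of 3 pairs, while the groups overlapped because overexpressing library 2 lay below control library 3 (exact permutation test over the 6 libraries, two-sided, p = 0.2, where the smallest p possible is 0.1).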
